A study of Mus musculus with 20 samples.

Results

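MAZ promoter sites never holding RAD21 were the MAZ peaks of untreated cells that lay at gene starts, away from CTCF, and that overlapped no cohesin peak in any of the 4 RAD21 lists analysed here. They numbered 3022 of the 6265 peaks in the MAZ WT list, or 48.2% (95% Wilson interval 47.0 to 49.5%), out of 136043 peaks in the 12 peak lists analysed here. Each had its summit within 1 kb of a transcript start of the GENCODE M21 basic set, and shared not even 1 bp with a CTCF WT peak or with a peak of the 4 RAD21 lists. The sites were therefore chosen by measured values, namely the MAZ, CTCF and RAD21 peak calls. Their number, their position within 1 kb of a start and their lack of RAD21 and CTCF describe the choice and are not findings.

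The study profiled MAZ, CTCF and the cohesin subunit RAD21 by ChIP-seq in mouse E14 embryonic stem cells (E14TG2a), grown with LIF and 2 inhibitors. All groups carried CTCF fused to an auxin-inducible degron. WT cells were untreated, and ΔCTCF cells received auxin for 2 days. ΔMAZ cells were a single Maz knockout clone made in the same degron cells, untreated, and ΔCTCF/ΔMAZ cells were that clone after auxin. Each of the 12 combinations of antibody and condition had 1 peak list. The other 8 of the 20 samples, further CTCF and MAZ samples of the same conditions, were not analysed here. With 1 list per group no difference between conditions had a replicate check. All intervals cover counting error over sites only, and neighbouring sites of 1 library are not independent replicates. The lists hold no read totals, so the depth of the libraries was unknown. A missing peak call is therefore not proof that the protein was absent, and "without RAD21" means without a called RAD21 peak.

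MAZ is a zinc finger protein that binds G-rich DNA, and many of its sites lie at CpG-island promoters. Cohesin is the ring-shaped complex that extrudes chromatin loops; CTCF, another zinc finger protein, stops it at loop anchors. Active promoters can also hold cohesin, so MAZ promoter sites fall into those with and those without a RAD21 peak.

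The sequence under the summits was G-rich, on either strand. The windows below run 30 bp to each side of the WT summit in GRCm38 (mm10), 5′ to 3′ on the strand of the nearest transcript, with matches to the MAZ core GGGAGGG or its complement in capitals. The first 6 are among the 10 strongest sites, Zfp358 was among the strongest sites that were not called in ΔCTCF, and Uhrf1bp1l was among the 3 weakest.
Ccdc85c, chr12:108275464-108275524, minus strand: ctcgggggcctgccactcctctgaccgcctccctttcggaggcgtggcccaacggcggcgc
Rcan1, chr16:92466189-92466249, minus strand: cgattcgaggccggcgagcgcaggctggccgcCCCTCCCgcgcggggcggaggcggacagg
Trim62, chr4:128883445-128883505, plus strand: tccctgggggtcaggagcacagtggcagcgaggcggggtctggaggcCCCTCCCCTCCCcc
St3gal2, chr8:110919764-110919824, plus strand: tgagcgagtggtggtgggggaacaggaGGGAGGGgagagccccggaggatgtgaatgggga
Hdgf, chr3:87906245-87906305, plus strand: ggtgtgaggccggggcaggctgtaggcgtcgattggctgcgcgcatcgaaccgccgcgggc
Wtip, chr7:34133293-34133353, minus strand: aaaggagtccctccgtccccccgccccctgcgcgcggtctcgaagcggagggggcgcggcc
Zfp358, chr8:3493056-3493116, plus strand: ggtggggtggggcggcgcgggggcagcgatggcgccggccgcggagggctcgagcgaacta
Uhrf1bp1l, chr10:89745556-89745616, plus strand: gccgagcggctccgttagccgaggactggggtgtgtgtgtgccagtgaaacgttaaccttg
Exact core matches stood in Rcan1, Trim62 (2 overlapping) and St3gal2. The other windows held runs of G or C without the exact core. Their GC content ran from 60.7% (Uhrf1bp1l) to 82.0% (Rcan1).

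Over all 3022 sites, 32.7% (31.1 to 34.4%) had GGGAGGG on either strand in the 100 bp centred on the summit. In 100-bp windows 500 bp to each side of the same summits the share was 8.54%. The share rose with peak strength: from the weakest to the strongest of 5 equal strength groups of MAZ WT peaks it was 24.0%, 28.8%, 32.2%, 34.9% and 44.2%. In the 100 strongest sites it reached 54.0% (44.3 to 63.4%). Matches peaked at the summit, with 10.8 per 100 sites in the 20 bp just left of it and 2.71 in the 20-bp bin that starts 300 bp to the left. Of the 1361 matches within 50 bp of a summit, 48.9% (46.2 to 51.5%) had their G-rich strand on the strand of the gene.

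GC boxes, GGGCGG or the complement, the sequence known for binding SP and KLF factors, were more common still. They stood at 63.6% (61.9 to 65.3%) of the summits and in 16.4% of the windows to the sides. Of the 3455 GC boxes within 50 bp of a summit, 55.1% (53.5 to 56.8%) had their G-rich strand on the strand of the gene. Both sequences occurred together at 20.6% of sites, the MAZ core without a GC box at 12.1%, the GC box alone at 43.0%, and neither at 24.3%. The 2 sequences can overlap, as in a run of G with 1 A. Across the 100 bp before the outermost start of all 21938 protein-coding gene identifiers (21911 different gene names, the unit of the gene counts further on), 12.3% held GGGAGGG and 32.3% held GGGCGG; those windows are fixed by gene starts, not by summits.

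**Figure D1:**
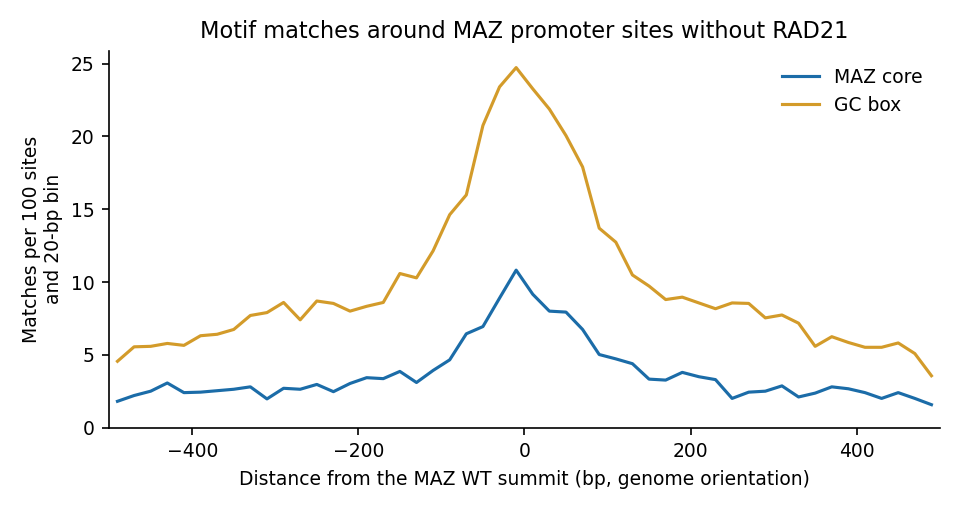
Matches to the MAZ core GGGAGGG and to the GC box GGGCGG, on either strand, per 100 sites in 20-bp bins (y axis) against distance from the MAZ WT summit (x axis, bp) for the 3022 sites. Both lines peak at the summit, at 10.8 and 24.7 matches per 100 sites, and fall away within about 200 bp.

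Other promoter sequences were rarer. CCGGAAG, an ETS-type sequence, stood at 6.45% of summits against 1.67% of the windows to the sides, and the E-box CACGTG at 4.00% against 1.605%. The CRE TGACGTCA was at 1.39% against 0.199%, the NRF1-type GCGCATGCG at 1.65% against 0.215%, and the YY1-type AAGATGGCG at 0.761% against 0.414%. CCAAT differed less, 13.1% against 9.51%. The TATA sequence TATAAA went the other way, 0.761% at summits against 2.56% to the sides. AGGGGGCGC, a piece of the CTCF motif, was found at 1.59% of summits against 0.563%; all these sites lacked a CTCF WT peak by the rule. In all protein-coding promoters the shares were 5.65% for CCGGAAG, 3.62% for CACGTG, 1.54% for TGACGTCA, 1.27% for GCGCATGCG and 0.292% for AAGATGGCG. They were 20.9% for CCAAT, 5.62% for TATAAA and 0.875% for AGGGGGCGC. The 200 bp around the summits had a median GC content of 71.0% (quartiles 65.5 and 75.9%) and a median ratio of observed to expected CpG of 0.836. By the usual limits of 50% GC and a CpG ratio of 0.6, 84.7% of the windows were like CpG islands.

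MAZ promoter sites with RAD21, 1413 sites picked by the same rule except that they overlapped a RAD21 peak, held GC boxes at 64.7% of summits and had a median GC content of 71.5%. Only 135 of them (9.55%) overlapped a peak of the RAD21 WT list, so most had no RAD21 peak in untreated cells. The 1413 sites held the MAZ core less often, at 27.5% of summits. The difference, sites without minus sites with RAD21, was 5.27 percentage points (2.37 to 8.09, Newcombe interval). It was positive in each strength group. The shares were 24.0% (20.8 to 27.6%) against 15.1% (10.9 to 20.5%) in the weakest group. In the strongest they were 44.2% (40.2 to 48.3%) against 41.4% (36.7 to 46.3%). The intervals overlapped in groups 3 to 5. The Mantel-Haenszel odds ratio over strength groups was 1.42 (1.23 to 1.64). The same odds ratio for GC boxes was 1.00 (0.877 to 1.14). Distal MAZ sites without RAD21 or CTCF, 846 peaks over 1 kb from any start, had the core at 40.3% of summits, GC boxes at 32.9%, and a median GC content of 59.5%.

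Summits of the promoter sites without RAD21 sat mostly just before the start. Upstream summits numbered 1866 (61.7%), the median position was -29 bp (quartiles -101 and 55 bp), and 50.6% lay in the 200 bp before the start. The 100 bp just upstream held 36.7% of all summits and the 100 bp from the start onward 17.3%. Only 8.74% lay more than 500 bp away. By the annotation, 42.3% of summits lay outside transcripts, 29.9% in exons outside the coding part, 24.4% in introns and 3.47% in coding sequence. The nearest transcript belonged to a protein-coding gene for 2789 sites (92.3%), to an antisense gene for 61 and to a lincRNA for 57.

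**Figure D2:**
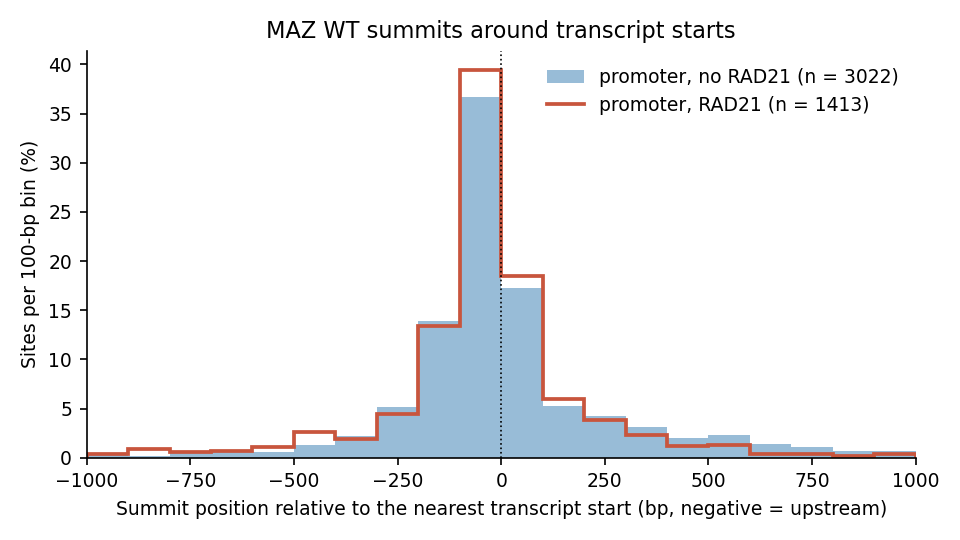
Percentage of summits in 100-bp bins (y axis) by position relative to the nearest transcript start (x axis, bp, negative upstream) for 3022 MAZ promoter sites without RAD21 (filled) and 1413 with RAD21 (line). Both peak in the 100 bp before the start, which holds 36.7% of the sites without RAD21.

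Stronger sites were more often upstream. The upstream share was 55.7% and 53.2% in the weaker strength groups 1 and 2, then 61.9%, 65.8% and 72.4% in groups 3 to 5, and 79.0% (70.0 to 85.8%) among the 100 strongest sites. The median position moved from -12 bp in group 1 to -49 bp in group 5. Sites with RAD21 rose from 54.2% upstream in group 1 to 75.6% in group 5, with an overall share of 65.4%. The difference, sites without minus sites with RAD21, was -3.65 percentage points (-6.64 to -0.597, Newcombe interval), and the sites with RAD21 were also stronger. Of the 3022 sites, 303 (10.0%) had protein-coding starts on both strands within 1 kb, for which the side depends on which start is nearer; without them the upstream share was 62.2%.

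At the edge of the rule, the site of Hmga1, which encodes a chromatin protein with AT hooks, lay 1000 bp upstream of the nearest start with a fold enrichment of 11.1. The site of Ndrg4 lay 995 bp downstream with 4.71. Just outside, Sfpq, a splicing factor gene, had a peak 1003 bp downstream with 3.74, and Gm38182 had one 1002 bp downstream with 3.48.

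Fold enrichment, the deposited ratio of the ChIP signal at the summit to the local background, had a median of 5.11 (quartiles 4.29 and 6.34, range 2.302 to 29.6). The median width was 312 bp (quartiles 245 and 420 bp, range 200 to 1335 bp), and wider sites were stronger (Spearman 0.590 across the 3022 sites, 1 library). Both medians were close to those of the whole MAZ WT list, 5.11 and 310 bp. Sites with RAD21 had a median fold enrichment of 5.48 and a median width of 352 bp. Distal sites without RAD21 had 4.69 and 260 bp. Among promoter peaks without CTCF, the share that lacked RAD21 fell from 74.4% in the weakest strength group to 59.1% in the strongest. The median width of the sites without RAD21 rose over the same groups from 243 to 468 bp, and the part of width in this fall was not tested.

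The strongest site was at Ccdc85c (chr12:108275142-108275916), 69 bp upstream of the start, with a fold enrichment of 29.6 in WT and 23.8 in ΔCTCF. It lay 237 bp from the nearest RAD21 peak. Rcan1, which encodes an inhibitor of calcineurin, followed with 26.6 in WT and 31.3 in ΔCTCF, 73 bp upstream. Trim62, a ubiquitin ligase gene, had 23.4 in WT and 25.02 in ΔCTCF, and the sialyltransferase gene St3gal2 had 22.3 and 21.3. All 4 lay 69 to 128 bp upstream of the start.

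The fifth site, chr19:46305307-46305844, lay nearest to AC114539.1 and within 1 kb of a start of Nfkb2, the gene of an NF-κB subunit, with 20.9 in WT and 24.9 in ΔCTCF. Hdgf, a growth factor gene, had 19.2 and 21.7. The seventh was nearest to 1700122E12Rik and within 1 kb of a start of Calr, the gene of the endoplasmic reticulum chaperone calreticulin, with 18.8 and 23.5. Ctdspl2, a phosphatase gene, had 18.2 and 21.4, Wtip, a LIM domain gene, 17.2 and 13.2, and 1190002N15Rik 16.8 and 17.0. All 10 were called in ΔCTCF, with summits at most 76 bp apart between the lists. The fold values of the 2 lists are not on 1 scale, so their ratio is not a change in binding.

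The weakest sites had values near the calling limit. Fam160a2 had a fold enrichment of 2.302, the site shared by Gm14966 and the splicing factor gene Sf1 had 2.36, and Uhrf1bp1l had 2.42. The first 2 were called in ΔCTCF and Uhrf1bp1l was not.

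After CTCF degradation 2007 of the 3022 sites were called again, or 66.4% (64.7 to 68.1%), counting any overlap of 1 bp with a MAZ ΔCTCF peak. This was the background rate, since 66.3% of all MAZ WT peaks were called. The ΔCTCF list was not shorter, with 6759 peaks, and 3107 of those met the same rule. Of the latter, 2012 (64.8%) overlapped a MAZ WT peak, near the 61.6% of the whole ΔCTCF list, and 1095 did not. The median fold enrichment in ΔCTCF was 6.58 for the former and 5.30 for the latter. Sites dropped out in both directions between the lists, then, and without replicate lists loss of binding cannot be told apart from variation in calling.

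Retention followed strength closely. By strength group it was 45.8%, 51.9%, 63.8%, 77.1% and 94.5%, and 99 of the 100 strongest sites were called against 43 of the 100 weakest. By width group it rose from 44.1% in the narrowest to 89.8% in the widest. Retained sites had a median WT fold enrichment of 5.52 and a median width of 344 bp, and sites that were not retained had 4.50 and 264 bp. Only 57 of the 1015 sites not retained had a fold enrichment of at least 6.5. Their base composition was close, with a median GC content of 71.0% in retained and 71.5% in other sites, and CpG-island-like windows at 85.2% and 83.8%.

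**Figure D3:**
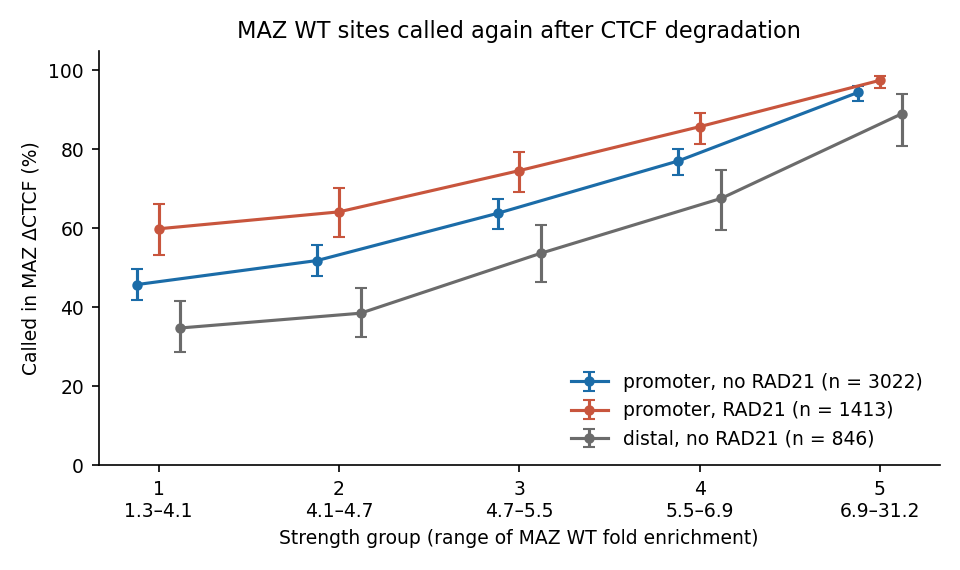
Percentage of MAZ WT sites called in MAZ ΔCTCF (y axis, with 95% Wilson intervals) in 5 equal groups of WT fold enrichment (x axis) for promoter sites without RAD21, promoter sites with RAD21 and distal sites without RAD21. All 3 lines rise; promoter sites without RAD21 go from 45.8 to 94.5% and lie between the other two in each group.

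Sites with RAD21 were retained more often, at 79.5% (77.4 to 81.6%). The difference, sites without minus sites with RAD21, was -14.1 percentage points in the weakest strength group (-21.6 to -6.34), -12.3, -10.8 and -8.70 in groups 2 to 4, and -3.03 (-5.48 to -0.453) in the strongest. The Mantel-Haenszel odds ratio over strength groups was 0.573 (0.489 to 0.673). Of the 1413 sites with RAD21, 1222 overlapped a peak of the RAD21 ΔCTCF list, which comes from the same condition as the MAZ ΔCTCF list, and 872 overlapped that list alone; the part of a shared condition was not tested. Against distal sites without RAD21, which were retained at 51.1%, the promoter sites without RAD21 were retained more often in each strength group, by 5.46 to 13.3 points, with an odds ratio of 1.63 (1.38 to 1.92).

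Retention also differed with other features, which were not compared at like strength. Upstream sites were retained at 69.3% and those at or downstream of the start at 61.8%. Sites with the MAZ core were retained at 69.2% and those without at 65.1%, and these groups also differed in strength. Sites with protein-coding starts on both strands were retained at 74.9% (69.7 to 79.5%) against 65.5% (63.7 to 67.2%) for the rest, a difference of 9.45 points (3.99 to 14.3), with a median fold enrichment of 5.11 in both.

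Retained sites overlap by definition, and within them the summits of both lists lay a median of 49 bp apart. Fold enrichment in WT and ΔCTCF correlated across the 2007 retained sites (Spearman 0.535; 1 library each), and of the 401 strongest in WT, 236 were among the 401 strongest in ΔCTCF. The median fold enrichment of retained sites was 5.52 in WT and 6.58 in ΔCTCF, while the median -log10 q was 10.7 in WT and 8.97 in ΔCTCF. Folds were thus higher and q values weaker in the ΔCTCF list. The part of library depth in retention was not tested. The largest ΔCTCF value belonged to the start shared by Rad17, Taf9 and Ak6, with 38.3 against 16.0 in WT.

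**Figure D4:**
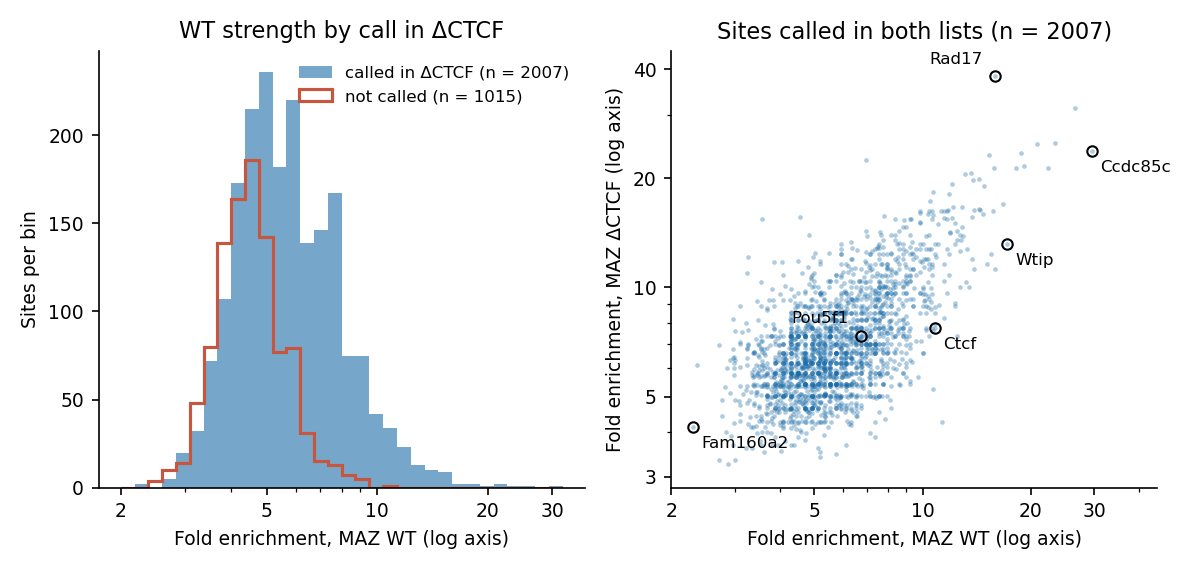
Left, number of sites per bin (y axis) by MAZ WT fold enrichment (x axis, log) for 2007 sites called in ΔCTCF and 1015 not called; the latter lie to the left, with medians of 5.52 and 4.50. Right, fold enrichment in MAZ ΔCTCF against MAZ WT (log axes) for the 2007 sites, with 6 gene starts marked; the Rad17 site stands highest at 38.3 in ΔCTCF.

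Of the 100 strongest sites 1 was not called in ΔCTCF, at Srp72. This gene, which encodes a subunit of the signal recognition particle, had its site 8 bp downstream of the start with a WT fold enrichment of 10.8, rank 75 of the 3022. Zfp358, a zinc finger gene, had 9.41, Pknox1, a homeobox gene, 9.33, Plekho2 9.32, and Kat6a, a histone acetyltransferase gene, 9.16. These were the next strongest of the sites not called, all 5 were in the strongest strength group, and the last 4 lay 48 to 169 bp upstream. A MAZ ΔCTCF peak stood within 500 bp, without overlap, for 135 (13.3%) of the 1015 sites not retained.

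None of the 3022 sites overlapped a peak of the MAZ ΔMAZ or MAZ ΔCTCF/ΔMAZ lists, which held 33 peaks each; taking 3 counts as the limit of a count of 0, 0 of 3022 allows a share of up to 0.0993%. Among all MAZ WT peaks 0.0798% overlapped a knockout list. CTCF peaks of the other 3 conditions touched 15 sites (0.496%), against 7.74% of all MAZ WT peaks, a difference the rule itself favours because it removed CTCF WT peaks.

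The distance to RAD21 rests on the same lists that chose the sites and is given as a description. The nearest RAD21 peak of any list was a median of 11.9 kb away (quartiles 2.92 and 28.3 kb), and 54.4% of sites had none within 10 kb. Within 500 bp of a site stood a RAD21 peak of the ΔCTCF list at 229 sites (7.58%), of the ΔMAZ list at 102, of the WT list at 68 and of the ΔCTCF/ΔMAZ list at 60. These lists held 17912, 20872, 20371 and 6400 peaks. Retention was 64.7% (59.5 to 69.6%) for the 343 sites within 500 bp of RAD21 in any list and 67.5% (65.2 to 69.7%) for the 1645 sites over 10 kb away, with overlapping intervals. The sites closest to RAD21 were at Tmem243, which touched a RAD21 peak without sharing a base, and at Nadk2, the mitochondrial NAD kinase gene, 2 bp away. On the other side of the limit, the peaks of 1700019D03Rik and of the mitochondrial DNA polymerase gene Polg shared 2 and 5 bp with RAD21.

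The sites lay at starts of 3006 of 21911 protein-coding genes, or 13.7% (13.3 to 14.2%). Of these, 233 had more than 1 site, and Ppp3ca, Jade2 and Gse1 had 4 each. A MAZ promoter site with RAD21 was also present at 142 of the 3006 (4.72%), against 6.48% of all protein-coding genes. The rule itself favours this lower share, because each of the 3006 genes needed another MAZ peak to be counted. The share of genes with a site was 14.3% (13.8 to 14.8%) on autosomes and 4.22% (3.11 to 5.69%) on the X chromosome, where 37 sites lay among 55 MAZ WT peaks, and 0 of 183 on the Y chromosome. E14 cells carry 1 X chromosome, and the part of copy number was not tested.

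The 31 gene lists are described by counts, with no test between them, and their retention is read against the 66.4% of all 3022 sites. MAZ promoter sites with RAD21, at 6.48% of all protein-coding genes, were also common in several lists. They stood at 7 of 32 Polycomb genes, 11 of 33 GC-box and G-rich zinc finger genes and 12 of 46 Wnt genes. For MAPK and RAS genes the count was 10 of 39, and for pluripotency genes 7 of 27. High shares in these 5 lists were thus not particular to sites without RAD21. Translation initiation factor genes (2 of 55) and cohesin genes (0 of 16) were below 6.48%. Polycomb genes, whose products keep developmental genes silent, had a site without RAD21 at 18 of 32 (56.3%), against 13.7% of all protein-coding genes. They included Phc1 with a WT fold enrichment of 10.7 and 5.24 in ΔCTCF, Phc2 with 8.80 and 11.996, and Cbx8 with 7.98 and 11.2, and 13 of their 21 sites were retained. The Phc1 site lay 249 bp from the nearest RAD21 peak. SWI/SNF remodeller genes had a site at 11 of 23, led by Smarce1 (7.95 in WT) and Smarcd2 (7.57), and 9 of 11 sites were retained. COMPASS genes, of histone H3 lysine methyltransferases, had one at 5 of 16, with Setd1a at 11.7 and Ncoa6 at 9.001; Ncoa6 was not called in ΔCTCF.

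Zinc finger genes of the GC-box and G-rich class had a site at 13 of 33. Klf10 had 12.3 in WT and 15.1 in ΔCTCF, Klf11 10.8 and 12.4, and Klf16 9.21 and 7.74. The MAZ promoter site of Maz itself held RAD21. It had a fold enrichment of 9.001 in WT and 13.2 in ΔCTCF, lay 413 bp upstream, and is thus no member of the set.

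Cohesin genes and their regulators had a site at 7 of 16. Ctcf had a site 195 bp upstream of a start (chr8:105636185-105636768), in an intron, with 10.8 in WT and 7.74 in ΔCTCF. Pds5a, a cohesin regulator, had 6.14 and Sgo1, which guards sister cohesion, 5.32, and neither was called in ΔCTCF. The Sgo1 site lay 16 bp from the nearest RAD21 peak. Rad21 had a weak site 501 bp downstream of its nearest start, in an intron, with 4.09, not called in ΔCTCF. It lay 412 bp from the nearest RAD21 peak and had a -log10 q of 4.79, so a RAD21 gap or start limit of 500 bp, or a -log10 q of at least 5, would each drop it. Of the 7 sites, 3 were retained.

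Cell cycle genes (cyclins, CDKs and E2F factors) had a site at 11 of 39, with Cdk4 at 9.21 in WT, Ccnb1 at 8.14 and E2f8 at 7.98, and 10 of 11 sites were retained. Translation initiation factor genes had one at 16 of 55, led by Eif4a1, the RNA helicase of the cap-binding complex, with 12.9 in WT and 16.7 in ΔCTCF. Ubiquitin E2 genes had one at 10 of 37, with Ube2r2 at 13.2 and Ube2e1 at 10.0. Nuclear pore genes had one at 8 of 27, with Nup62 at 7.77.

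MAPK and RAS genes had a site at 11 of 39, with Rasa1 at 8.80, and Wnt genes at 11 of 46, with the receptor gene Fzd2 at 12.1 and Btrc at 8.87. Rab GTPase genes had one at 14 of 59, led by Rab22a at 10.3, and 17 of their 18 sites were retained. Pluripotency genes had one at 6 of 27, with Pou5f1 at 6.75 in WT and 7.35 in ΔCTCF, Lin28a at 6.603 and Sall4 at 6.37. Of their 7 sites 2 were retained, and Lin28a was not.

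RNA polymerase II and general factor genes had a site at 11 of 50, led by the start shared by Taf9 and Rad17 at 16.0. Genes of developmental factors that are usually silent in stem cells also had one at 11 of 50, with Neurog1 at 7.16, and 5 of 11 sites were retained. Hox genes had one at 5 of 39, with Hoxd8 at 5.69 and Hoxa4 at 5.52, and 1 of 5 sites was retained.

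Many housekeeping groups were near the background or below it. Cytosolic ribosomal protein genes had a site at 12 of 85, mitochondrial ribosomal protein genes at 9 of 78, respiratory chain genes at 11 of 83, spliceosome genes at 9 of 58, and solute carrier genes at 53 of 371. Mrpl14 (10.0 in WT), Sf3b4 (10.2), Rps16 (8.29) and Slc12a4 (13.8) were the strongest of 4 of these. Mediator genes had one at 4 of 33, DNA replication genes at 5 of 38, kinesin genes at 6 of 38, DNA repair genes at 4 of 49 and tRNA synthetase genes at 2 of 35. Rad51c, a recombination gene, had 12.9 in WT.

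Proteasome genes had a site at 1 of 39 (Psmd14, 4.91) and replication-dependent histone genes at 1 of 67 (Hist1h4h, 6.44, not called in ΔCTCF). No site lay at any of 1092 olfactory receptor genes, 56 clustered protocadherin genes or 49 keratin genes. The background of 13.7% includes many genes that are off in these cells, and expression was not used here.

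**Figure D5:**
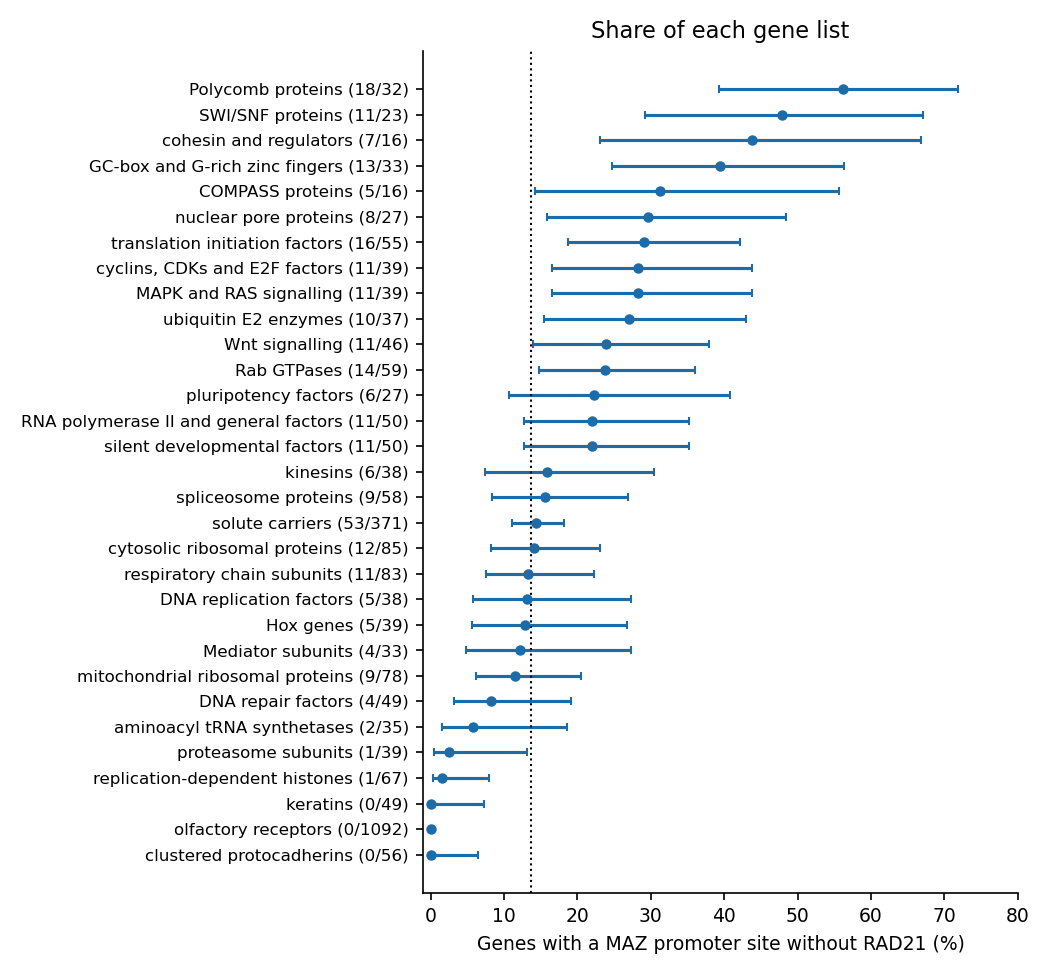
Percentage of the protein-coding genes of each list that had a MAZ promoter site without RAD21 (x axis, points with 95% Wilson intervals; counts beside the names), with the share of all protein-coding genes, 13.7%, as a dotted line. Polycomb genes are highest at 56.3%, and the olfactory receptor, protocadherin and keratin lists are at 0.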

How the data were processed

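ChIP-seq for 3 proteins in 4 conditions gave 12 narrow-peak lists, 1 per group. According to the methods and labels, the authors mapped reads to mm10 (Bowtie2), filtered them and removed duplicates (SAMtools), and made the peak lists in narrow mode (MACS); the use of an input control is not given in the sources used here, and the Drosophila spike-in does not enter the lists. The deposited columns are a score (10 times the -log10 q, rounded down), a fold enrichment ratio over local background, -log10 p and -log10 q values, and the summit offset; none is scaled between libraries, and the depth is unknown.

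Overlaps needed 1 bp (bedtools 2.31.1 gave the same 11 overlap sets, with 0 peaks differing). The nearest start came from GENCODE M21 basic, and sequence from GRCm38. Strength groups are 5 groups of equal size of the MAZ WT list by fold enrichment. Shares carry 95% Wilson intervals, differences Newcombe intervals, and stratified contrasts Mantel-Haenszel odds ratios, with python 3.11.15 and pandas 2.3.3; no p-value was computed. The functions were tested on simulated data.

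The sites and the gene lists were chosen with earlier results of these data known. Sites were named by rule: the 10 strongest, the 5 strongest not called in ΔCTCF, the 3 weakest, up to 3 of the strongest per gene list, and those nearest to the 1-kb limit and to RAD21. Ctcf, Rad21 and Maz as assayed proteins, Rad17 and the genes with 4 sites were named after their values were seen. Alternatives varied the q value, gaps, distances, overlap and windows.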

Additional observations from a re-analysis of the deposited data

How the results depend on the processing

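Of 51 alternative values for 8 results, 35 stayed within the 95% interval of the reported value (for the number of sites, within 1.5 times) and 16 moved beyond it. None turned a direction. Some of the 35 could not have moved. Leaving out peaks of the knockout MAZ lists changed nothing, because none of the 3022 sites overlapped them. The share of genes was also fixed when only protein-coding starts were used. Keeping MAZ WT peaks whose -log10 q reached 5 gave 71.9% retention, 63.7% upstream, a median fold enrichment of 5.37, a median width of 330 bp, the MAZ core at 34.7% and sites at 11.5% of genes, by dropping weak sites. Requiring RAD21 and CTCF to be over 500 bp away lowered the share of genes to 12.01%, and starts within 500 bp gave 12.6% of genes and 64.9% upstream. Retention was 55.5% with a reciprocal overlap of 50%, 70.9% when a MAZ ΔCTCF peak within 500 bp counted, 64.1% with lists of equal length and 57.1% when the ΔCTCF list was held to the same q limit. The MAZ core share was 47.2% in 200-bp windows, which hold more bases. Measured from the outermost start of each gene, 56.9% of the 2796 summits within 1 kb of one were upstream. The odds ratio of retention against sites with RAD21 was 0.674 with the reciprocal overlap, 0.563 with strength groups by q value and 0.579 with width groups. It was not computed for the other alternatives. No paired analysis was possible because there was a single list for every group, and no replicate list could be left out. Without read totals, the effect of depth on which sites were called could not be measured.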
